A study of Mus musculus with 6 samples.

Results

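The Hox genes of the 4 mouse Hox clusters were followed in NMuMG cells, an epithelial line derived from mouse mammary gland, during the response to transforming growth factor β (TGF-β). The family was chosen with earlier results of these data known. Its members were taken by gene symbol alone, as rows of the count table named Hoxa, Hoxb, Hoxc or Hoxd with a number. Among 18512 rows, 20 Hox genes are described. NMuMG cells, serum-starved in the study's protocol, received DMSO (the vehicle control), 5 ng/ml of TGF-β, or the same dose of TGF-β together with 50 uM of 2APB (TGF-β+2APB). Each group had 2 replicates, so that 6 RNA libraries were sequenced. 2APB, 2-aminoethoxydiphenylborane, is used as an inhibitor of store-operated calcium entry. The study's results give the treatment as 24 h, whereas its methods place 2APB before TGF-β, so the order of the agents is not settled here. No group received 2APB alone, so a change with TGF-β+2APB against DMSO cannot be divided between the agents. The study calls the replicates biological, but the labels do not say whether they came from separate cultures, and p-values measure the spread between these libraries.

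Hox genes encode homeodomain transcription factors that give cells their position along the body axis. They lie in clusters in which the genes at the 3′ end, with low numbers, act in anterior regions and those at the 5′ end, with high numbers, in posterior regions. TALE homeodomain proteins (PBX, MEIS and PREP) bind DNA with Hox proteins, Polycomb proteins hold the clusters silent, and retinoic acid, CDX factors and GDF11 are known to regulate them in embryos. Hox genes also stay active in adult tissues, among them the mammary gland, where Hoxa9, Hoxb9 and Hoxd9 have overlapping roles.

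Of these genes, 8 lie in cluster A and 8 in cluster B, 1 in cluster C (Hoxc8) and 3 in cluster D (Hoxd4, Hoxd8 and Hoxd11), as annotated in GENCODE M21 (build GRCm38). A further 18 annotated Hox genes, Hoxd9 among them, had no row and are not analysed here. Only 5 of the 20 had a mean raw count of at least 20 over the 6 libraries. These were Hoxa2, Hoxa3, Hoxa4 and Hoxa5, 4 neighbours in the 3′ part of cluster A, and Hoxb13, the gene at the 5′ end of cluster B. Hoxa2 lay just inside that minimum with a mean of 22 counts and Hoxa10 just outside it with 13.7 counts. Libraries held between 71840570 and 79473182 counts, and every deposited value was even, so that 2 was the smallest count above 0.

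**Figure D1:**
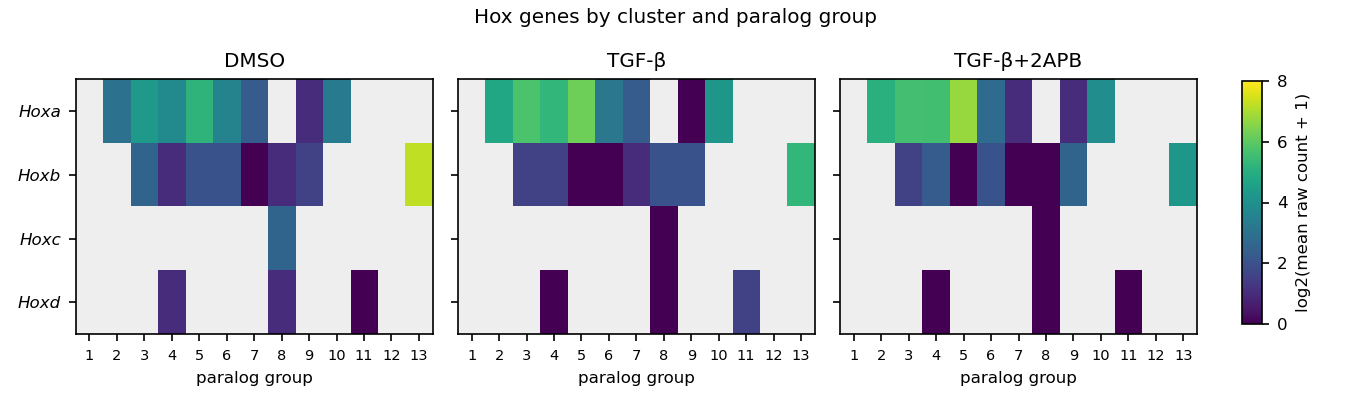
Heat maps of the 3 groups with the clusters as rows and the paralog groups 1 to 13 as columns, coloured by log2 of the mean raw count of 2 libraries plus 1, with grey where no value is shown. Hoxa2 to Hoxa5 are brighter in both treated groups, and Hoxb13 is darker there.

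The 4 quantified HoxA genes lie in order on the minus strand of chromosome 6. Hoxa2 spans chr6:52162417-52164831, Hoxa3 spans chr6:52169062-52213336, Hoxa4 spans chr6:52189671-52191753 and Hoxa5 spans chr6:52201754-52204587 (GRCm38). Hoxb13 lies on the plus strand at chr11:96194316-96197447. Exons of Hoxa3 (25.4% of exon bases) and Hoxa4 (16.0%) overlap annotated genes on the opposite strand, and 15.04% of those of Hoxa2 and 8.01% of those of Hoxa3 overlap another gene on the same strand. The strand setting of the counting is not given in the sources used here, so reads of these partners cannot be told apart. No exon base of Hoxa5 or Hoxb13 is shared with an exon of another annotated gene, although Hoxa4 and Hoxa5 both lie inside the annotated span of Hoxa3.

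RefSeq (GRCm38.p6) held a promoter entry for 3 of the 5 quantified genes (Hoxa2, Hoxa3 and Hoxa5). Those of Hoxa2 and Hoxa5 are shown because their upstream bases overlap no annotated exon, whereas those of Hoxa3 do. Each is the 250 bases before the start (minus strand, printed 5′ to 3′), at chr6:52164832-52165081 for Hoxa2 and chr6:52204588-52204837 for Hoxa5. Capitals mark CCAAT (the letters of the NF-Y box) and CAGAC (letters bound by SMAD proteins, the transcription factors of TGF-β signalling) on either strand.
Hoxa2: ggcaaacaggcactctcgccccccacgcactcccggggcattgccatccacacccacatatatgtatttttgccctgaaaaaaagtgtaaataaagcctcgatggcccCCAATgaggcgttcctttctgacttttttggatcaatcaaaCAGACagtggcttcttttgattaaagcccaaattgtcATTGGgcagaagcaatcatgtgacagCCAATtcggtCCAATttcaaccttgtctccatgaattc
Hoxa5: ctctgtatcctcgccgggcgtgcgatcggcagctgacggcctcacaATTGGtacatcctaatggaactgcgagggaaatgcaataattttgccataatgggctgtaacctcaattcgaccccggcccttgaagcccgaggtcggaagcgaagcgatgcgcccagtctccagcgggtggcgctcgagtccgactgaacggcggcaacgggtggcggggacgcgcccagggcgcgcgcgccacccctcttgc
CCAAT stands 4 times in the Hoxa2 sequence and CAGAC once, whereas the Hoxa5 sequence holds CCAAT once and no CAGAC. Over the whole entry, which adds 50 bases after the start, GC content was 45.7% with 9 CG pairs for Hoxa2 and 61.7% with 29 CG pairs for Hoxa5, against medians of 52.7% and 7 pairs over 32851 promoters. CCAAT was present in 37.4% and CAGAC in 49.6% of all these promoters, on either strand. Other letters were searched too and are not marked. A PBX-HOX site (TGATNNAT, N being any base) starts at -111 of Hoxa2, on the reverse strand, and 8.85% of all promoters hold one. A retinoic acid receptor half-site (AGGTCA) starts at base 42 after the start of Hoxa5, against 16.3% of promoters. TATA box, GC box and CDX letters had no match in either entry. These matches describe the letters and do not show binding.

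Hoxb13, a posterior Hox gene best known from the prostate, hindgut and tail, fell in both treated groups. Its raw counts stood at 170 and 130 under DMSO, at 50 and 26 under TGF-β and at 16 and 20 under TGF-β+2APB. The 3 groups did not overlap, and both TGF-β+2APB libraries lay below both TGF-β libraries. As normalized counts (scaled to the mean library), Hoxb13 went from 150.7 ± 23.2 (SD, n = 2 throughout) under DMSO to 37.8 ± 15.4 under TGF-β and to 17.8 ± 2.75 under TGF-β+2APB. With TGF-β it was 3.97-fold lower than in DMSO (log2 fold change -1.99, SE 0.38), with a Benjamini-Hochberg FDR of 0.00943 in edgeR's quasi-likelihood test. With TGF-β+2APB it was 8.42-fold lower than in DMSO (log2 fold change -3.07, SE 0.40, FDR 0.00166). Set against TGF-β alone, TGF-β+2APB gave a log2 difference of -1.09 (95% interval -2.07 to -0.10, unadjusted p = 0.0359 in edgeR) and did not pass after adjustment (FDR 0.121). That difference rested on single TGF-β libraries, being -0.597 (FDR 0.281) without replicate 1 and -1.45 (FDR 0.0305) without replicate 2. The call against DMSO was lost for TGF-β without DMSO replicate 1 (FDR 0.0689) and was kept for TGF-β+2APB whichever library was left out.

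Hoxa5, a regulator of lung and mammary epithelium, rose in both treated groups. Its raw counts stood at 36 and 36 under DMSO, at 80 and 70 under TGF-β and at 104 and 110 under TGF-β+2APB, and no group overlapped another. Normalized, these came to 36.3 ± 1.28 (SD, n = 2 throughout), then 75.3 ± 3.74, then 105.7 ± 3.93. The log2 fold change against DMSO was 1.05 (SE 0.26, FDR 0.0219) with TGF-β and 1.54 (SE 0.26, FDR 0.00415) with TGF-β+2APB. The TGF-β call was lost without DMSO replicate 1 (FDR 0.142) or DMSO replicate 2 (FDR 0.12), while the TGF-β+2APB call was kept whichever library was left out. Between the treated groups the log2 difference was 0.49 (95% interval -0.13 to 1.11, FDR 0.231).

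**Figure D2:**
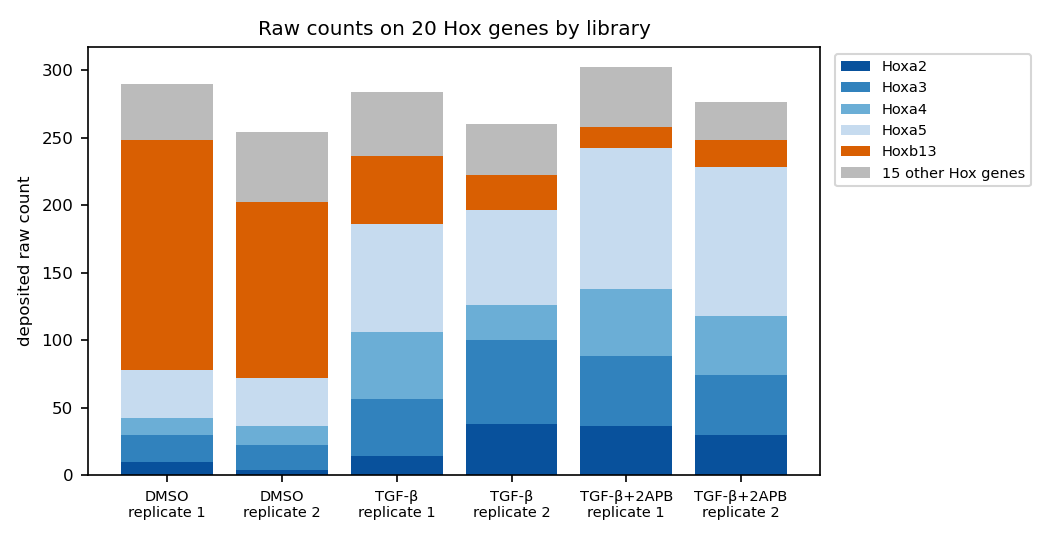
Stacked bars of the raw counts on the 20 Hox genes in each of the 6 libraries, with Hoxa2 to Hoxa5 in blues, Hoxb13 in orange and the 15 other genes summed in grey. The blue part grows and the orange part shrinks from the DMSO to the treated libraries, while the bar height stays between 254 and 302 counts.

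Hoxa3, needed for the thymus and parathyroid, and Hoxa4 rose in both treated groups. Raw counts of Hoxa3 stood at 20 and 18 under DMSO, at 42 and 62 under TGF-β and at 52 and 44 under TGF-β+2APB. Those of Hoxa4 stood at 12 and 14, at 50 and 26, and at 50 and 44. In both genes each treated library exceeded both DMSO libraries, and the treated groups overlapped. The log2 fold change of Hoxa3 was 1.45 (SE 0.36, FDR 0.0241) with TGF-β and 1.30 (SE 0.36, FDR 0.0273) with TGF-β+2APB. That of Hoxa4 was 1.52 (SE 0.42, FDR 0.034) and 1.81 (SE 0.42, FDR 0.0145). When either DMSO library was left out, none of these 4 calls remained, the FDR lying between 0.0705 and 0.184. The TGF-β+2APB calls were also lost without TGF-β+2APB replicate 1 (Hoxa3, FDR 0.095, and Hoxa4, FDR 0.0564), that of Hoxa3 with TGF-β was lost without TGF-β replicate 2 (FDR 0.0618), and that of Hoxa4 with TGF-β was lost without TGF-β replicate 1 (FDR 0.101) or TGF-β+2APB replicate 1 (FDR 0.0533).

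Hoxa2, which patterns the second pharyngeal arch, rose with TGF-β+2APB. Its raw counts stood at 10 and 4 under DMSO, at 14 and 38 under TGF-β and at 36 and 30 under TGF-β+2APB. The 2 TGF-β libraries lay on either side of the TGF-β+2APB pair, and all treated libraries exceeded both DMSO libraries. The log2 fold change against DMSO was 2.20 (SE 0.69, FDR 0.0399) with TGF-β+2APB and 1.90 (SE 0.69, FDR 0.0759) with TGF-β, which did not pass. The TGF-β+2APB call was lost with no filter on the mean count (FDR 0.0552) and without DMSO replicate 1 (FDR 0.0747), DMSO replicate 2 (FDR 0.187) or TGF-β+2APB replicate 2 (FDR 0.0687), whereas TGF-β passed without TGF-β replicate 1 (FDR 0.0208). Without TGF-β replicate 2 or TGF-β+2APB replicate 1, Hoxa2 was under the minimum mean count and was not tested.

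**Figure D3:**
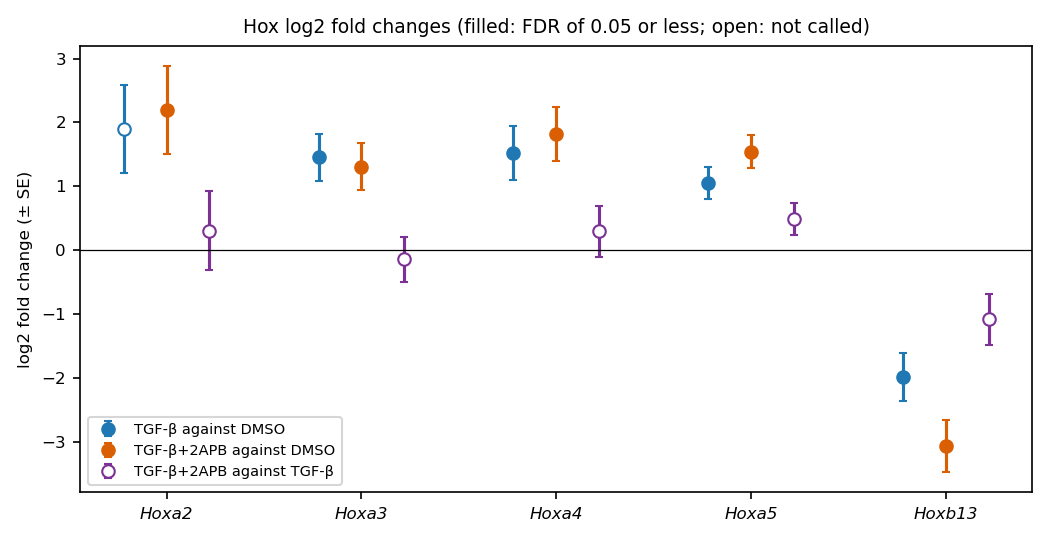
Fitted log2 fold changes, with bars of 1 SE either way, for the 5 quantified Hox genes in the 3 comparisons, with filled symbols for genes called at an FDR of 0.05 or less. The 4 HoxA genes lie above 0 and Hoxb13 below 0 in both comparisons with DMSO, and no gene was called between TGF-β+2APB and TGF-β.

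Across the 5 quantified genes, TGF-β against DMSO gave 3 called higher (Hoxa3, Hoxa4 and Hoxa5), 1 lower (Hoxb13) and 1 not called (Hoxa2), where 41.5% of the 13353 genes tested were called (21.8% higher and 19.7% lower). TGF-β+2APB against DMSO gave 4 higher and 1 lower, where 52.8% of all genes were called (25.6% higher and 27.2% lower). With shares of all genes this large, these counts over 5 genes are read as a description only. TGF-β+2APB against TGF-β gave 0 of 5 called in edgeR and 0 in DESeq2 with or without its prior, with 1 at an unadjusted p under 0.05 (Hoxb13), where 17.5% of all genes were called (6.58% higher and 10.9% lower). The median log2 fold change of the 5 genes was 1.45, 1.54 and 0.29 in the 3 comparisons, whereas that of all genes tested was -0.01, 0.00 and 0.00. Both comparisons with DMSO share the DMSO libraries. The filter on the mean count let 4 of the 5 pass through groups in which they were high, since Hoxa2, Hoxa3 and Hoxa4 had DMSO means and Hoxb13 a TGF-β+2APB mean under 20 normalized counts.

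Intervals between the treated groups were wide for the other genes. The log2 difference of TGF-β+2APB minus TGF-β was 0.30 for Hoxa2 (95% interval -1.23 to 1.83), -0.15 for Hoxa3 (-1.01 to 0.71) and 0.29 for Hoxa4 (-0.69 to 1.27). The direction of Hoxa2, Hoxa3 and Hoxa4 turned when a TGF-β library was left out, to -0.27, 0.213 and -0.068. Similar levels are therefore not shown for any of them.

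The make-up of the Hox counts differed between the groups far more than their sum. The 20 genes together took 290 and 254 raw counts under DMSO, 284 and 260 under TGF-β, and 302 and 276 under TGF-β+2APB. Hoxa2 to Hoxa5 made up 26.9% and 28.3% of these counts under DMSO, 65.5% and 75.4% under TGF-β, and 80.1% and 82.6% under TGF-β+2APB. Hoxb13 made up 58.6% and 51.2%, 17.6% and 10%, and 5.3% and 7.25%.

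Levels between genes were compared as normalized counts per kilobase of exon. The length was that of all annotated exon bases in GENCODE M21 (6014 for Hoxa3, 1594 for Hoxa4 and 1775 for Hoxa2). The annotation used for the counting is not known, and the order depends on this length. Before division, Hoxa3 stood above Hoxa4 and Hoxa2 in every group (means of 19.1, 13.1 and 6.98 normalized counts in DMSO). In DMSO the order was Hoxb13 (68.3 ± 10.5, SD, n = 2), Hoxa5 (19.3 ± 0.682), Hoxa4 (8.24 ± 1.18), Hoxa2 (3.93 ± 2.27) and Hoxa3 (3.18 ± 0.125). The libraries of Hoxa2 and Hoxa3 overlapped, and no other neighbours in that order did. Under TGF-β the order was Hoxa5 (40.1 ± 1.99), Hoxa4 (23.7 ± 9.64), Hoxb13 (17.2 ± 6.96), Hoxa2 (14.9 ± 10.3) and Hoxa3 (8.75 ± 2.75), and libraries of the last 4 overlapped from each gene to the next. With TGF-β+2APB, Hoxa5 (56.3 ± 2.10, SD, n = 2) was followed by Hoxa4 (29.1 ± 2.7), Hoxa2 (18.4 ± 2.41), and then Hoxb13 (8.06 ± 1.25) and Hoxa3 (7.89 ± 0.949), whose libraries overlapped. The median over 12718 tested genes with a known length was 459 in DMSO and 441 with TGF-β+2APB, so all 5 Hox genes lay under it. The highest, Hoxb13 in DMSO, reached percentile 20.1.

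**Figure D4:**
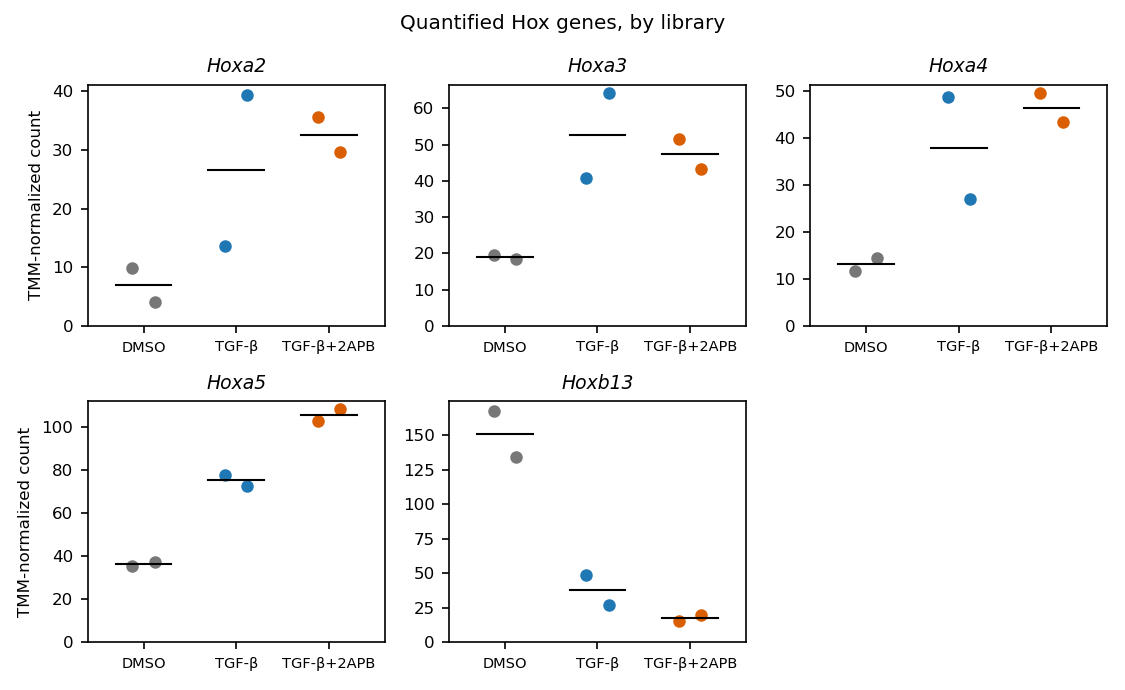
TMM-normalized counts of the 5 quantified Hox genes, a panel each, with the 3 groups on the x axis, each library as a point and the mean of 2 libraries as a line. The HoxA genes lie higher in both treated groups than in DMSO, whereas Hoxb13 lies lower.

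**Figure D5:**
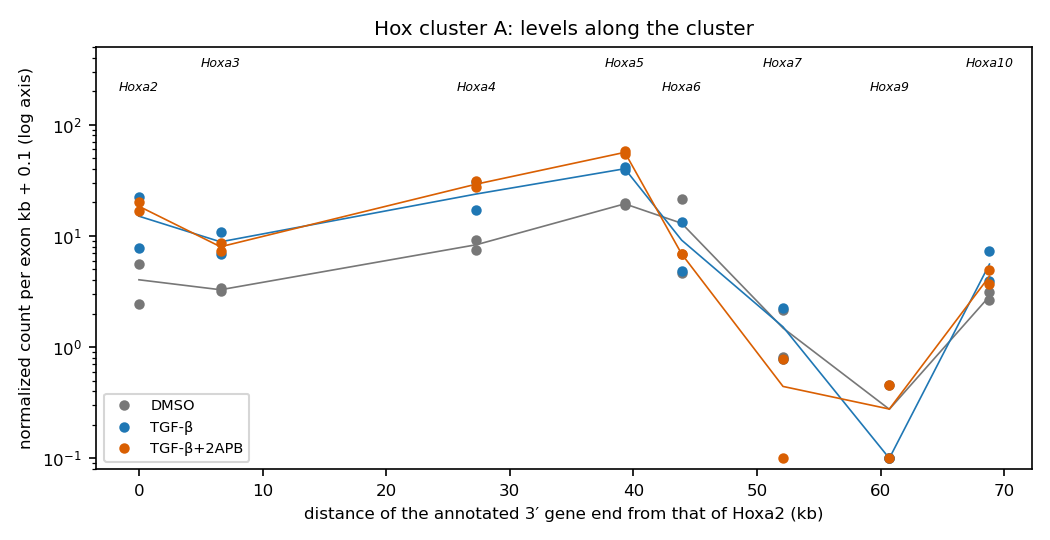
Normalized counts per exon kilobase plus 0.1 (log axis) of 8 HoxA genes against the distance of each 3′ end from that of Hoxa2 in kb, with each library as a point and lines through the group means. The treated groups lie above DMSO from Hoxa2 to Hoxa5, 39.3 kb away, and no such order is seen from Hoxa6, 43.9 kb away, to Hoxa9. At Hoxa10, 68.8 kb away, every treated library again lies above DMSO, at 24 raw counts or fewer.

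The next genes of cluster A were near the limit of detection. Hoxa6, 43.9 kb from the 3′ end of Hoxa2, stood at 4 and 18 raw counts under DMSO, at 12 and 4 under TGF-β and at 6 and 6 under TGF-β+2APB. Hoxa10, known from the uterus, had 10 and 8, 24 and 12, and 16 and 12. Each treated library thus exceeded both DMSO libraries for Hoxa10, which was not called in the fit with no filter. Hoxa7 and Hoxa9 stayed at 6 counts or fewer in every library. Per kilobase of exon, Hoxa6 was at 12.9 ± 11.9 normalized counts (SD, n = 2) under DMSO, 9.06 ± 6.10 under TGF-β and 6.78 ± 0.0166 under TGF-β+2APB. Under DMSO its libraries overlapped those of its direct neighbour Hoxa5, whereas in both treated groups they lay below them.

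Among the other low genes of cluster B, Hoxb3, Hoxb4, Hoxb5, Hoxb6, Hoxb7, Hoxb8 and Hoxb9 had at most 8 counts in any library, so that cluster B was represented by Hoxb13 alone. Hoxc8 had 4 and 6 counts in DMSO and 0 in all 4 treated libraries, where a count of 0 allows up to 3 counts. Because all values were even, it is not known whether each read entered the table as 2 counts. If it did, that limit would be 6 counts, which reaches the DMSO values. Hoxd4, Hoxd8 and Hoxd11 had at most 2 counts in any library. In the fit with no filter on the mean count, 0 of these 15 low genes were called in any comparison and 0 had an unadjusted p under 0.05, and the lowest FDR was 0.121, for Hoxc8 in TGF-β+2APB against DMSO. Small changes in these genes were not detectable at such counts, and large ones could be missed too. Hoxc8, with a fitted log2 fold change of -5.37 in both comparisons with DMSO, was not called. Of 22 noncoding and other genes listed for the clusters, 1 had a row (Mira, at most 4 counts in any library). Outside that list, the antisense gene Hoxd3os1 of cluster D had a row, with 2 counts in TGF-β+2APB replicate 1 and 0 in the other libraries.

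Genes known to act with or on Hox genes were described from lists, whose counts stand against the shares of all genes given above. Of 7 tested TALE cofactors, 1 rose with TGF-β and 0 fell, and with TGF-β+2APB against DMSO 1 rose and 1 fell. Pbx3 went from 818.3 ± 20.3 (SD, n = 2) normalized counts in DMSO to 1389.5 ± 42.3 with TGF-β (log2 fold change 0.76, SE 0.10, FDR 0.00269) and 1900.5 ± 202 with TGF-β+2APB (1.22, SE 0.10, FDR 0.000329). Pbx4 fell with TGF-β+2APB (-1.96, SE 0.49, FDR 0.0185), a call lost without either DMSO library or TGF-β+2APB replicate 1. The TGF-β+2APB mean of Pbx4 was 12.8 normalized counts, under the minimum of 20, so it passed the filter through the other groups. The median of the list was -0.19 with TGF-β and 0.04 with TGF-β+2APB.

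Among known upstream regulators of Hox genes, Cdx2 and Aldh1a1 fell and Gdf11 rose in both treated groups. Of 15 tested, 4 rose and 2 fell with TGF-β, and 3 rose and 3 fell with TGF-β+2APB against DMSO. Cdx2, a caudal homeobox factor, fell from 659.8 ± 1.9 (SD, n = 2) normalized counts in DMSO to 231.3 ± 36.5 with TGF-β (log2 fold change -1.51, SE 0.21, FDR 0.00292) and 49.4 ± 11.1 with TGF-β+2APB (-3.74, SE 0.23, FDR 0.000118). Aldh1a1, an enzyme that makes retinoic acid, fell too, with log2 fold changes of -3.76 (SE 0.27, FDR 0.0003) and -7.05 (SE 0.33, FDR 5.38e-05). Aldh1a2, another enzyme of retinoic acid synthesis, rose with TGF-β+2APB against DMSO (log2 fold change 2.45, SE 0.70, FDR 0.0298), a call lost without either DMSO library. Its means were 8.01 in DMSO, 17.3 with TGF-β and 44.4 with TGF-β+2APB, so it passed the filter through TGF-β+2APB, where it was high. Gdf11, a secreted factor of trunk patterning, rose by 1.5 (SE 0.26, FDR 0.00664) and 2.06 (SE 0.26, FDR 0.0015). The TGF-β call of Gdf11 was lost without DMSO replicate 2, and those of Cdx2 and Aldh1a1 held in all 16 alternatives.

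Between TGF-β+2APB and TGF-β, 0 of the 15 upstream regulators rose and 3 fell. Cdx2 was lower with TGF-β+2APB by a log2 difference of -2.22 (SE 0.22, FDR 0.00497), and Aldh1a1 by -3.29 (SE 0.31, FDR 0.0043). Gmnn, the replication inhibitor geminin, was at 966.6 normalized counts in DMSO, 1525.4 with TGF-β and 921.1 with TGF-β+2APB, and fell between the treated groups (-0.73, SE 0.09, FDR 0.00795). The call of Gmnn was lost without TGF-β+2APB replicate 2. Whether these regulators bear on the Hox genes was not tested.

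Chromatin regulators changed in both directions. Of 30 Polycomb proteins, 5 rose and 5 fell with TGF-β, and 6 rose and 7 fell with TGF-β+2APB against DMSO, with medians of 0.02 and 0.12. Phf1, a partner of the complex that methylates histone H3, fell by 1.35 (SE 0.08, FDR 0.000175) with TGF-β, and this call held in all 16 alternatives. Of 16 Trithorax proteins and H3K27 demethylases, 3 rose and 3 fell with TGF-β, and 4 rose and 1 fell with TGF-β+2APB. Dot1l, an H3K79 methyltransferase counted in this list, rose by 1.11 (SE 0.08, FDR 0.000203) with TGF-β+2APB against DMSO. The H3K27 demethylase Kdm6b had a log2 fold change of -0.40 (SE 0.08, FDR 0.0126) with TGF-β, a call lost without either DMSO library. With TGF-β+2APB against DMSO, Kdm6b was not called (0.05, SE 0.08, FDR 0.645).

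Homeobox genes outside the Hox clusters included larger changes than any Hox gene. Of 20 tested, 8 rose and 3 fell in each comparison with DMSO. Of all genes tested, 41.5% were called with TGF-β and 52.8% with TGF-β+2APB, so these counts are a description only. Prrx2, a mesenchymal homeobox gene, rose from 9.1 ± 1.75 (SD, n = 2) normalized counts to 311.9 ± 24.4 with TGF-β (log2 fold change 5.08, SE 0.22, FDR 7.94e-05) and 546.5 ± 30.7 with TGF-β+2APB (5.89, SE 0.22, FDR 3.17e-05). Dlx3 was at 1.97 ± 2.78, 16.2 ± 6.41 and 206.6 ± 27.1, and its rise with TGF-β (FDR 0.0457) was lost under library-size scaling, with no filter on the mean count, and without DMSO replicate 2, TGF-β replicate 2 or TGF-β+2APB replicate 1. Meox2, a gene of muscle and vessel precursors, fell from 189.6 ± 15.2 to 27.4 ± 11.2 and 5.93 ± 0.0145. Prrx2, Dlx3 and Meox2 each passed the filter on the mean count through groups in which they were high. Dlx3 was under 20 normalized counts in both DMSO and TGF-β.

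The nearest tested genes beside the clusters did not share a direction. Of 24, with 3 taken on each side of each cluster, 4 rose and 3 fell with TGF-β, and 3 rose and 5 fell with TGF-β+2APB against DMSO. The shares called over all genes tested were 41.5% and 52.8%, and the counts are read as a description only. Beside cluster B, Ttll6, 28.9 kb from the cluster on the Hoxb13 side, had log2 fold changes of -2.35 (SE 0.54, FDR 0.0184) and -3.14 (SE 0.57, FDR 0.0059), the first call being lost without TGF-β replicate 1. Skap1, 96.3 kb from the other end, rose from 2.02 ± 0.0711 (SD, n = 2) normalized counts to 23.2 ± 2.46 and 39.5 ± 5.69. Both genes passed the filter on the mean count through groups in which they were high. For Ttll6 this was DMSO (means of 61.9, 12.1 and 6.91), and for Skap1 the treated groups. Beside the HoxA genes, Skap2, 143.0 kb away, was not called (log2 fold change -0.22, SE 0.07, FDR 0.052 with TGF-β). Hibadh, 285.3 kb from the other end, was lower with TGF-β (-0.63, SE 0.09, FDR 0.00294) and with TGF-β+2APB (-0.47, SE 0.09, FDR 0.006) against DMSO. With TGF-β+2APB against DMSO, Snx10 (-0.54, SE 0.13, FDR 0.0158) and Jazf1 (-2.39, SE 0.43, FDR 0.00542) were lower too. The remaining cluster A neighbours, Cbx3 and Tax1bp1, were not called in either comparison with DMSO.

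Of 7 tested mammary epithelial markers, 3 rose and 3 fell with TGF-β, and 4 rose and 3 fell with TGF-β+2APB against DMSO. Over all genes tested, 41.5% and 52.8% were called in these comparisons. The luminal keratin Krt8 held 226934 to 736744 counts and rose (log2 fold changes 0.66, FDR 0.00296, and 1.55, FDR 0.000103), as did Krt18 (0.92, FDR 0.00122, and 1.81, FDR 8.42e-05). Gata3 rose in both comparisons (2.28, FDR 0.00121, and 2.34, FDR 0.000697), and Krt7 was called only with TGF-β+2APB (1.06, FDR 0.00152). Krt19 fell (-2.04, FDR 0.00659, and -4.09, FDR 0.000492), as did the adhesion genes Epcam (-1.42, FDR 0.0141, and -0.97, FDR 0.038) and Cdh1 (-0.78, FDR 0.0055, and -1.26, FDR 0.000682). Elf5, Esr1 and Prlr had at most 22 counts in any library, the basal markers Krt5, Krt14 and Trp63 had at most 6, and Pgr, Csn2 and Wap had no row. Markers of other cell types were followed as sums of normalized counts over each list. The 5 hepatocyte markers found of 6 summed to 54830 to 61330 in DMSO, 107.9 to 249.3 with TGF-β and 27.6 to 47.5 with TGF-β+2APB. The DMSO sum lay in Alb, Ttr, Apoa1 and Fga, whereas Tat had at most 10 raw counts in any library and Cyp7a1 had no row. The 7 fibroblast markers found of 8 summed to 151.3 to 175.6, 2343 to 2355 and 2474 to 3110. Most of that rise lay in Col1a1 (group means 62.7, 1674.5 and 1899.8) and Pdgfrb (11.1, 572.2 and 608.8). Pdgfra was called against DMSO only with TGF-β+2APB (log2 fold change 1.79, FDR 0.00109). Col3a1 did not rise (raw counts 10 and 12, then 4 and 6, then 6 and 12). Col1a2, Thy1 and Dcn had at most 6 raw counts in any library, with Col1a2 at 0 in both DMSO libraries. The 5 leukocyte markers summed to 481.4 to 629.0, 246.9 to 335.0 and 334.6 to 2364, the highest being TGF-β+2APB replicate 2, while Cd3e was at 0 in 5 libraries. Of 3 leukocyte markers tested, 0 were called in any comparison. The 4 endothelial markers summed to at most 49.3, with Kdr at 0 in 5 libraries, and 0 of them passed the filter to be tested. In bulk RNA, fewer cells of a type and less RNA per cell cannot be told apart, and the part of these markers in the Hox changes was not tested.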

How the data were processed

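RNA from NMuMG cells was sequenced in 6 libraries, 2 per group. Per the submitters' processing notes, FastQC 0.11.2, TopHat2 2.0.13, DESeq2 1.6.1 and build mm10 were used, and the authors counted reads on genes with featureCounts (the methods name hg19, the deposited symbols are mouse). The deposited values are raw counts per gene, without normalization, and every value was even. In 25 rows the name had the form of a date.

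Counts were scaled by TMM in edgeR 4.0.16 (R 4.3.3, limma 3.58.1), keeping the 13353 genes whose mean normalized count was 20 or more, and all 3 groups entered the same quasi-likelihood model. Benjamini-Hochberg FDR values of 0.05 or less over all genes tested were called. SE is the log2 fold change over the square root of F. The biological coefficient of variation was 17.4%. Of the symbols, 17551 (94.8%) matched the annotation. Of the genes outside the Hox clusters, at most 4 per list and comparison were named, by size of change among those called, and genes named beyond that were chosen after their values were seen. The Hox genes and the lists were chosen with earlier results of these data known. Results for 2 genes that these rules cover are not reported here. The procedure was tested on simulated data. Alternatives, DESeq2 1.42.0 among them, are given under the dependence on processing. The 95% intervals come from the fitted SE, and the floor of 3 counts covers counting error only.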

Additional observations from a re-analysis of the deposited data

How the results depend on the processing

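With TGF-β against DMSO, 4 Hox genes were called, 1 at an FDR of 0.01, 1 (Hoxb13, losing Hoxa3, Hoxa4 and Hoxa5) with the replicate number as a block, and 0 to 4 with a library left out (0 without DMSO replicate 1 and 1 without DMSO replicate 2). With TGF-β+2APB against DMSO, 5 were called, 2 at an FDR of 0.01, 3 with the replicate block (losing Hoxa2, FDR 0.0768, and Hoxa3, FDR 0.057), and 2 to 5 with a library left out. The lowest, 2 (Hoxa5 and Hoxb13 each time), came without DMSO replicate 1, DMSO replicate 2 or TGF-β+2APB replicate 1. Between TGF-β+2APB and TGF-β, 0 were called, and 0 to 1 with a library left out, the 1 being Hoxb13 without TGF-β replicate 2 (log2 fold change -1.45, FDR 0.0305), against -0.597 (FDR 0.281) without TGF-β replicate 1. There, leaving out a TGF-β library also turned Hoxa2 (-0.27 to 0.435 over the libraries left out), Hoxa3 (-0.436 to 0.213) and Hoxa4 (-0.068 to 0.784). A left-out library leaves its group with 1 sample, which is taken to vary like the others. The groups did not vary alike. Over the genes tested, the SD of the log2 difference between replicates was 0.334 in DMSO, 0.567 with TGF-β and 0.78 with TGF-β+2APB. Of 229 single-gene alternatives for the Hox genes, 197 kept their direction and their side of the threshold, 27 lost a call, 2 gained one and 3 changed sign.

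Over 13353 genes, the replicate differences of DMSO correlated at 0.148 with those of TGF-β and at -0.458 with those under TGF-β+2APB, and those of the treated groups at -0.255, so the numbers as labelled were not taken to pair the samples. A replicate block with the TGF-β+2APB numbers exchanged, added after seeing the data, called 3, 4 and 0 Hox genes. Scaling by RLE or by library size and counts divided by 2 left the Hox counts at 4, 5 and 0. For the genes of the other lists, where alternatives were chosen after seeing the data, 830 of 950 kept the call and 0 changed sign. The replicate block kept 50 of 61 of these calls and lost that of Dlx3 with TGF-β, which the exchanged block lost too. The low Hox counts limit the precision, with 15 of 20 genes under a mean of 20 counts.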
